A study of Mus musculus with 9 samples.

Results

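Haematopoietic stem and progenitor cells hold on to the bone marrow, roll on vessel walls and touch their neighbours through a limited set of surface proteins, and 39 genes for such proteins were followed here among the 24060 named genes of the count table. They were taken by name: 14 integrin alpha subunits, 6 integrin beta subunits, P-selectin (Selp) and its ligand (Selplg), Cd44, Cd34, Cd47, Cd48, Cd9, the immunoglobulin-type adhesion genes Icam1, Icam2, Pecam1, Vcam1, Jam2, Jam3, F11r, Alcam, Ncam1 and L1cam, and the cadherins Cdh2 and Cdh5. All 39 were found in the table. The rule uses names alone, but the names were chosen with earlier results of these data known.

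RNA-seq was performed on LSKs (Lin-Sca1+Kit+ cells, the marrow fraction that holds the stem cells and multipotent progenitors) from 3 control, 2 NHD13 and 4 NHD13/MSI2 samples. Control marrow was C57BL/6. NHD13 marrow carried a NUP98-HOXD13 fusion gene driven by the Vav promoter, which is active throughout the blood system, and is used as a model of myelodysplastic syndrome. NHD13/MSI2 marrow carried in addition a doxycycline-inducible MSI2 gene (KH2-Col1A1-tet-on-MSI2 with a ROSA26-rTTA driver), MSI2 being an RNA-binding protein. In all 3 groups the marrow was injected with CD45.1+ helper cells into lethally irradiated CD45.1 mice, the recipients ate doxycycline for 3 months, and donor-derived (CD45.2) LSKs were sorted. The labels give a C57BL/6 strain and an age of 4 months for every sample. The antibodies that the study lists for its lineage gate in stem cell stains bind Gr1, B220, CD3, CD4, CD8 and Ter119, and do not include Mac1, the protein made from Itgam.

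Between 19242153 and 23013493 reads per library were counted on named genes. Levels are given as CPM, the counts of a gene relative to the TMM-normalized size of its library. Msi2 itself did not mark the MSI2 transgene in these counts: its CPM were 88.0, 77.1, 82.8 and 241 there, 139 and 111 in NHD13 and 223, 316 and 266 in control, so the NHD13/MSI2 group is known here by its labels alone. Hoxd13, the partner gene of the fusion, was at 0 in the 3 control libraries and between 0.648 and 1.13 CPM in the 6 others. NHD13/MSI2 replicate 4 stood apart from its group: its counts differed from those of replicates 1 to 3 with a chi-square per gene of 365 to 390, against 17.6 to 30.1 among those 3. Xist had 21712 and 21664 counts in control replicates 1 and 3 and 3 to 49 in the 7 others, and Uty, on the Y chromosome, had 32 and 1 counts in control replicates 1 and 3 and 1971 to 2917 in the 7 others. Control thus mixes both patterns of Xist and Uty and the other groups hold 1 of them. Ddx3y, also on the Y chromosome, had 1 count in control replicates 1 and 3 and 4835 in control replicate 2. It had 3737 and 5057 counts in NHD13 and 74 to 389 in NHD13/MSI2, and so differed between these groups too. The part of these differences in the comparisons was not tested. The library names of the controls carry the words bulk (replicate 1) and MPP and HSC (replicates 2 and 3). The markers that define the sort were present in all libraries, with Kit between 908 and 2254 CPM and Ly6a (Sca1) between 48.3 and 375 CPM.

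Integrins are pairs of an alpha and a beta subunit that bind matrix proteins or immunoglobulin-type counter-receptors, and the pairing decides what is bound: alpha4 with beta1 binds Vcam1 and fibronectin, alphaL and alphaM with beta2 bind Icam proteins, and alphaM beta2 is the Mac1 antigen of myeloid cells. Selectins are lectins that catch sugar-modified mucins such as Selplg and let cells roll. The junctional proteins Jam2, Jam3 and F11r (JAM-A) bind each other and integrins at contacts between cells, and Pecam1 (CD31) binds itself on leukocytes, platelets and endothelium.

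The stretches before the start sites of Itgam and F11r are shown because they passed the test over both other groups, in opposite directions, as described below. Each is the 250 bases before the RefSeq start on GRCm38.p6, read 5′ to 3′ on the plus strand, with matches to GAGGAA or its reverse complement (the core bound by PU.1-type ETS factors) in capitals. That of Itgam is chr7:128062390-128062639 and that of F11r is chr1:171437311-171437560.
Itgam: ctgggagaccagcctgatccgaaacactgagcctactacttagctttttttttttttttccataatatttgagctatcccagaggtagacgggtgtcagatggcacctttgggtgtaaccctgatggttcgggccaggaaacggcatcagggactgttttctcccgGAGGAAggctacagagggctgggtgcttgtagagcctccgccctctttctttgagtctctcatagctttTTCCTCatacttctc
F11r: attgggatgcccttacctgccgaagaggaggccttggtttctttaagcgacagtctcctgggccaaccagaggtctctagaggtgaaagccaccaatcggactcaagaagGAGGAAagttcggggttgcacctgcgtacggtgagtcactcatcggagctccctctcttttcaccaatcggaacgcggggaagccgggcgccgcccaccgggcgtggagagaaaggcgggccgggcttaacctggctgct
The Itgam stretch holds 2 matches, beginning 84 and 15 bases before the start, and the F11r stretch holds 1, beginning 140 bases before it. RefSeq stretches were matched for 9 of the 12 members that passed the test in at least 1 comparison (not for Jam2, Jam3 and Pecam1), and with both starts of Itga3 these make 10. On either strand GAGGAA was present in 4 of the 10 and in 23.3% of 32851 stretches of the same length, the GATA-type AGATAA in 0 of 10 and 9.99%, the RUNX-type TGTGGT in 1 of 10 and 14.0%, and the PBX-HOX-type TGATTNAT in 1 of 10 and 2.82%. The PBX-HOX-type match was in the Itga9 stretch (chromosome 9, 118711442 to 118711691). That stretch lies inside the GENCODE M21 span of Itga9 and not before its start at 118606690. A match of letters is a description and does not show binding.

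Adhesion genes that passed the test in the NHD13/MSI2 libraries went both ways. Itgam rose and the 3 junctional genes F11r, Jam2 and Jam3 fell relative to both other groups, while Selp, Itgb7 and Pecam1 rose, and Alcam, Cd34, Itga2, Itga3 and Itga9 fell, relative to control. Relative to control, NHD13 libraries differed in Cd34 alone among the members at this threshold. Differences were tested with edgeR's quasi-likelihood test over 13355 genes, with Benjamini-Hochberg adjustment and an adjusted p under 0.01 as the threshold. In bulk samples, fewer cells of a type and less RNA per cell cannot be told apart.

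In NHD13/MSI2 over NHD13, 4 of the 36 tested members passed (11.1%), 1 higher and 3 lower, where 3.17% of all tested genes passed (0.584% higher and 2.58% lower). In NHD13/MSI2 over control, 12 of 36 passed (33.3%), 4 higher and 8 lower, where 11.0% of all tested genes passed (4.49% higher and 6.55% lower). In NHD13 over control, 1 of 36 passed (2.78%), where 1.03% of all tested genes passed (0.824% higher and 0.210% lower). The median log2 fold change of the members was -0.21, -0.12 and 0.17 in these comparisons, and that of all tested genes was -0.028, -0.011 and 0.017. Members were chosen with earlier results of these data known, so their shares are a description and no test of adhesion genes. Each pair of comparisons shares a group, so the calls in different comparisons are not independent. The plot of fold changes gives all 36 members side by side.

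The counts of calls depended on single libraries. Of the 12 calls over control, 5 were left without control replicate 1 or 3, 7 without control replicate 2 or NHD13/MSI2 replicate 1 or 2, and a count of 12 was reached without replicate 4, the library that stood apart. In NHD13/MSI2 over NHD13 the count of 4 became 1 without control replicate 1 or NHD13/MSI2 replicate 3, 2 without control replicate 2 or 3 or NHD13/MSI2 replicate 1, and 5 without NHD13/MSI2 replicate 4. The calls of Itgam, F11r, Jam2 and Jam3 over NHD13 were all lost without NHD13 replicate 1, which leaves 1 NHD13 library. In NHD13 over control edgeR called 0 members without any 1 of the controls or without NHD13/MSI2 replicate 2 or 3 (11 to 14 members had an unadjusted p under 0.05 in these fits, and DESeq2 called 7 with all libraries), and it called 3 without NHD13/MSI2 replicate 4.

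**Figure D1:**
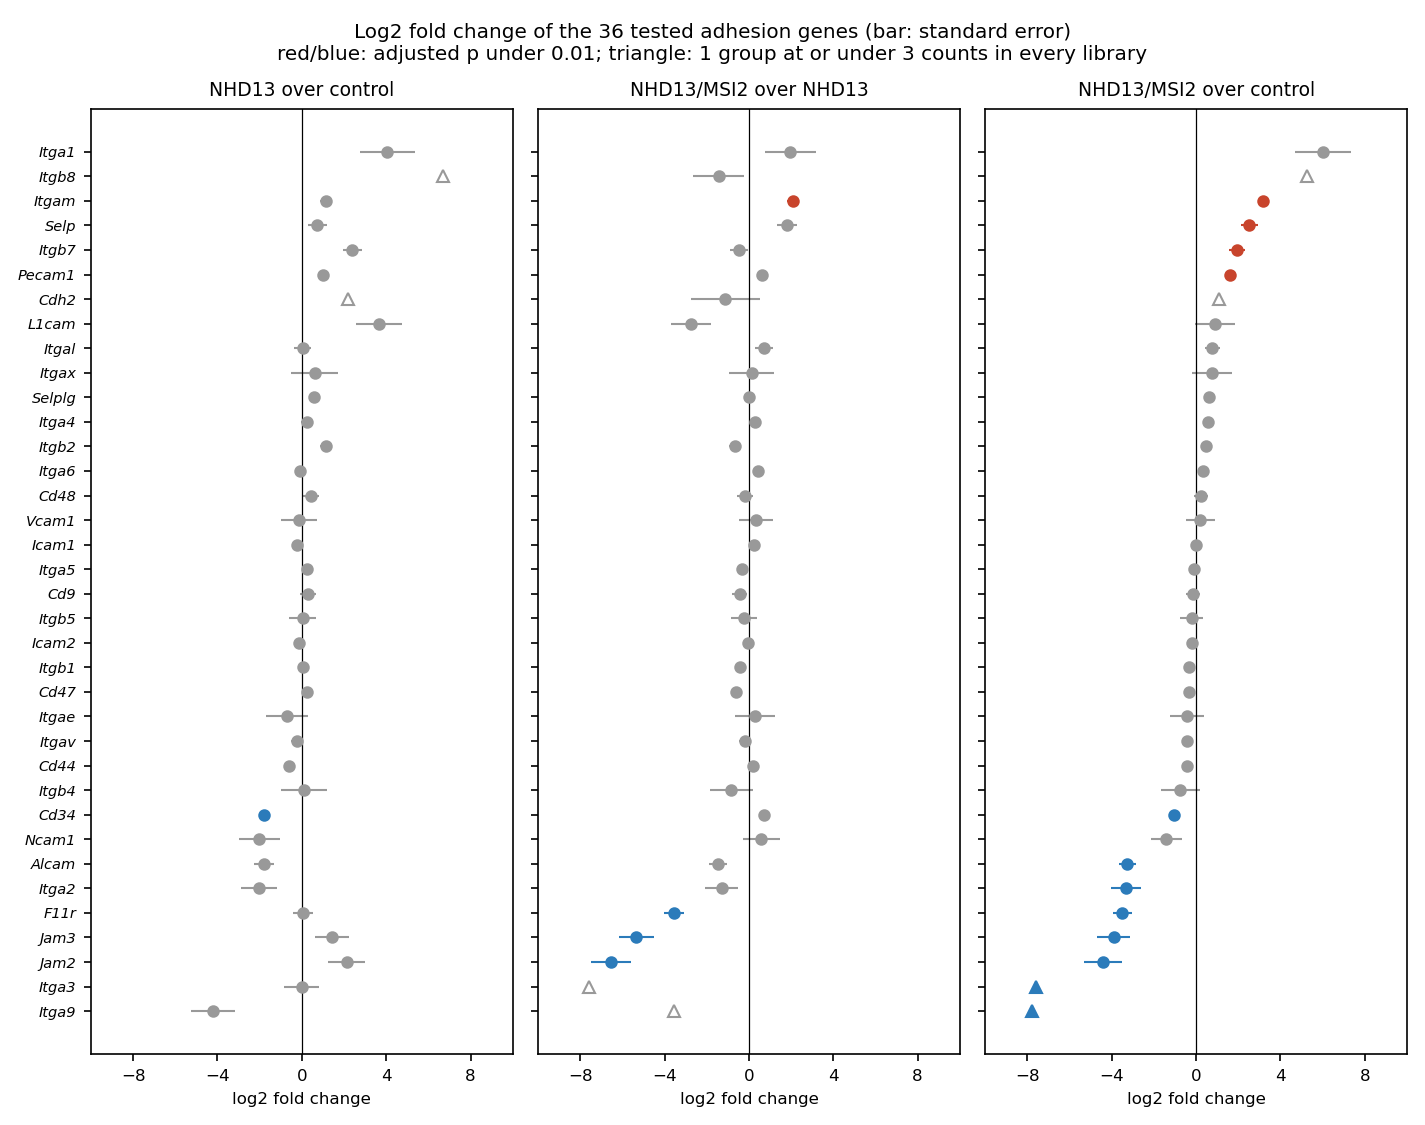
Log2 fold change (horizontal axis) of the 36 tested adhesion genes (rows, ordered by NHD13/MSI2 over control) in the 3 comparisons, with the standard error as a bar and genes with an adjusted p under 0.01 in red (higher) or blue (lower). The middle panel has 4 coloured genes and the right panel 12, and the position of a triangle, a gene with a group at or under 3 counts in every library, depends on the prior count and is no bound.

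Among the 20 integrin subunits, 18 were tested and 5 passed in at least 1 comparison: Itgam and Itgb7 higher, and Itga2, Itga3 and Itga9 lower, all over control. The subunits with the highest levels per kb of transcript were mostly not among these 5, the exceptions being Itgam in NHD13/MSI2 and Itgb7 in NHD13. Itgb1, the common beta chain of the matrix-binding integrins, was at 56.6 CPM per kb in control, 59.3 in NHD13 and 44.8 in NHD13/MSI2 (group means), and Itga4, the Vcam1-binding partner of beta1 and beta7, at 32.3, 38.5 and 47.5. Itgam was at 9.68 CPM per kb in control and 88.7 in NHD13/MSI2, the highest level of an alpha subunit there. Itga6 (a laminin receptor chain), Itgal (the alpha chain of LFA-1) and Itga5 (the fibronectin receptor chain) lay between 9.89 and 22.6 CPM per kb in all 3 groups. The plot of integrin levels shows these orders.

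Itgam, on chromosome 7 from 128062640 to 128118491 (plus strand, GENCODE M21 on GRCm38), had the largest rise among the members that passed. Its CPM were 44.5, 41.2 and 50.2 in the controls, 65.7 and 132 in NHD13, and 424, 352, 477 and 408 in NHD13/MSI2. The 3 groups did not overlap, and the lowest NHD13/MSI2 library was above the highest NHD13 library. The log2 fold change was 2.07 (standard error 0.29, edgeR adjusted p = 0.00351) over NHD13 and 3.20 (standard error 0.26, adjusted p = 7.53e-05) over control, which is 9.16 times the control mean. The call over control held with each of the 9 libraries left out, whereas that over NHD13 was lost without control replicate 1, NHD13 replicate 1 or NHD13/MSI2 replicate 1 (adjusted p from 0.0103 to 0.0116) and with only the 2 groups in the fit (0.0294). NHD13 over control did not pass (log2 fold change 1.13, standard error 0.27, adjusted p = 0.0641).

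The partner and neighbour genes of Itgam did not pass the test. Itgb2, the beta chain with which alphaM pairs, was at 51.8, 73.7 and 40.1 CPM in the controls, 153 and 92.8 in NHD13, and 74.2, 68.2, 76.4 and 89.4 in NHD13/MSI2. The NHD13/MSI2 values of Itgb2 lay between 68.2 and 89.4 CPM, within or above the control range and below both NHD13 libraries, with a log2 fold change of -0.67 over NHD13 (standard error 0.26, edgeR adjusted p = 0.167) and 0.48 over control (standard error 0.24, adjusted p = 0.199). Itgal, the other beta2 partner that was well counted, ranged from 42.9 to 86.1 CPM in control, from 45.8 to 97.6 in NHD13 and from 80.3 to 168 in NHD13/MSI2, and did not pass over control (log2 fold change 0.76, standard error 0.36, adjusted p = 0.175). Itgax, which lies next to Itgam on chromosome 7 and marks dendritic cells, stayed between 0.150 and 7.65 CPM in all 9 libraries.

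Some monocyte and macrophage markers also rose, in NHD13 over control as well, where Itgam did not pass. Of the 7 listed markers, 6 were in the table and tested, 2 of them passed in NHD13 over control and 2 in NHD13/MSI2 over control, all higher, and 1 (Csf1r, the M-CSF receptor) passed over NHD13. Of all tested genes 1.03%, 11.0% and 3.17% passed in these comparisons. The 6 markers summed to 49.9 to 87.6 CPM in control, 313 to 402 in NHD13 and 647 to 816 in NHD13/MSI2. Most of the NHD13/MSI2 sum came from Csf1r and Cd68, with group means of 356 and 210 CPM. Over NHD13, 4 of the 6 had a positive log2 fold change. The 2 others were Ccr2 (mean 84.1 against 93.0 CPM) and Emr1 (3.04 against 12.5 CPM). Neutrophil markers were lower in sum, which was 877 to 2403 CPM in control, 134 to 507 in NHD13 and 195 to 603 in NHD13/MSI2. No monocyte or neutrophil marker in the table was at 0 in every library. The part of these cells in the Itgam result was not tested.

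Itgb7 (chromosome 15, 102215995 to 102231944, minus strand), the beta chain of the gut-homing integrin alpha4 beta7, rose in NHD13/MSI2 over control. Its CPM were 18.2, 30.5 and 12.9 in the controls, 107 and 109 in NHD13, and 94.2, 92.2, 92.9 and 34.7 in NHD13/MSI2. All 6 libraries with NHD13 lay above the controls, with NHD13/MSI2 replicate 4 the nearest to them. The difference passed in NHD13/MSI2 over control (log2 fold change 1.94, standard error 0.40, edgeR adjusted p = 0.00774) and did not in NHD13 over control (2.40, standard error 0.44, adjusted p = 0.0226). Without NHD13/MSI2 replicate 4 both passed, with log2 fold changes of 2.19 and 2.40 and adjusted p of 0.000637 and 0.00268. The call over control was also kept without control replicate 2 and lost with any of the 7 other libraries left out (adjusted p from 0.0112 to 0.0395) and with only the 2 groups in the fit (0.0106).

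Lymphocytes carry Itgb7, and lymphoid markers also differed between the groups. The 6 B cell markers summed to 45.7 to 57.5 CPM in control, 81.9 and 127 in NHD13 and 262 to 448 in NHD13/MSI2. Of these markers 3 rose in NHD13/MSI2 over control, where 11.0% of all tested genes passed. Most of the NHD13/MSI2 sum came from Cd79a and Cd79b, while the mean of Ebf1 was 1.52 CPM in control and 0.257 in NHD13/MSI2. NHD13/MSI2 replicate 4, the lowest of its group in Itgb7, had a B cell sum of 328 CPM. The 6 T cell markers summed to 37.7 to 50.3 CPM in control, 199.98 and 203 in NHD13 and 50.6 to 86.5 in NHD13/MSI2. Of the 3 T cell markers tested, Lck, a kinase of T cell receptor signalling, rose in NHD13 over control, where 1.03% of all tested genes passed. Lck made up most of the T cell sum in every library, with 193 and 192 CPM in NHD13. Cd3d, Cd3e and Cd3g had at most 15 counts in a library and did not pass the filter on low counts. No marker of either list was at 0 in every library, and the part of lymphoid cells in the Itgb7 result was not tested.

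The 3 integrin subunits that fell were scarce transcripts in every group. Itga2 (chromosome 13, 114833081 to 114932100, minus strand), a collagen receptor chain, was at 6.79, 4.37 and 7.44 CPM in the controls, 2.30 and 0.741 in NHD13, and 0.414, 0.199, 1.49 and 0.325 in NHD13/MSI2. The log2 fold change of Itga2 over control was -3.32 (standard error 0.71, edgeR adjusted p = 0.00952). Its call was lost without any 1 of the controls or without NHD13/MSI2 replicate 1, 2 or 4 (adjusted p from 0.0154 to 0.0386).

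Itga9 and Itga3 reached the floor in the NHD13/MSI2 libraries. Itga9 (chromosome 9, 118606690 to 118901003, plus strand), whose protein binds tenascin and osteopontin, was at 2.37, 4.89 and 5.24 CPM in the controls, 0.0460 and 0.395 in NHD13, and 0.0517, 0, 0 and 0 in NHD13/MSI2. Against a floor of 3 counts per library Itga9 was at least 26.2-fold lower in NHD13/MSI2 than in control (edgeR adjusted p = 0.000915), and the call held with each of the 9 libraries left out. Itga3 (chromosome 11, 95044474 to 95076801, minus strand), a laminin receptor chain, was at 1.59, 0.854 and 0.960 CPM in the controls, 1.66 and 0.593 in NHD13, and 0 in all 4 NHD13/MSI2 libraries. That is at least 7.15-fold lower than control (adjusted p = 0.00511) and at least 7.08-fold lower than NHD13, where the test did not pass (adjusted p = 0.0133). The Itga3 call over control was lost without any 1 of the controls or without NHD13/MSI2 replicate 2 or 3 (adjusted p from 0.01005 to 0.0221). Itga9 passed the filter on low counts only through its control libraries and Itga3 through control and NHD13, so that members at this depth could be tested only because another group was higher.

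Itga1, a collagen receptor chain, showed the widest ratio of means without passing among the comparisons in which both groups held counts. Its CPM were 0.613, 0.285 and 0.320 in the controls, 13.8 and 0 in NHD13, and 25.6, 38.7, 22.3 and 21.3 in NHD13/MSI2. NHD13 replicate 1 lay near the NHD13/MSI2 libraries and NHD13 replicate 2 held no count. NHD13/MSI2 over control had a log2 fold change of 6.02 (standard error 1.31, edgeR adjusted p = 0.0105), with an adjusted p of 5.04e-05 without NHD13 replicate 1, 5.13e-05 without NHD13 replicate 2 and 0.01005 to 0.0527 without any other library. NHD13 over control did not pass (4.06, standard error 1.32, adjusted p = 0.178). Without NHD13 replicate 2, which leaves 1 NHD13 library, its log2 fold change was 5.04. Itga1 lies next to Itga2 on chromosome 13, and their fitted changes over control had opposite signs.

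The other tested integrin subunits (Itga4, Itga5, Itga6, Itgae, Itgal, Itgav, Itgax, Itgb1, Itgb2, Itgb4, Itgb5 and Itgb8) passed in no comparison. Itga4 was at 287 to 331 CPM in control, 244 and 507 in NHD13, and 406 to 550 in NHD13/MSI2 (log2 fold change 0.56 over control, standard error 0.24, edgeR adjusted p = 0.136). Itgb1 was at 205 to 222 CPM in control, 210 and 242 in NHD13, and 149 to 183 in NHD13/MSI2. The NHD13/MSI2 range of Itgb1 lay below the range of both other groups, with log2 fold changes of -0.34 over control (standard error 0.13, adjusted p = 0.0984) and -0.40 over NHD13 (standard error 0.14, adjusted p = 0.131). Itgb8 was at 0 in the controls and at most 14 counts elsewhere. Itga7 (1 count over all 9 libraries) and Itga8 (at most 19 counts in a library) did not pass the filter, which is a limit of depth and not a measured absence.

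**Figure D2:**
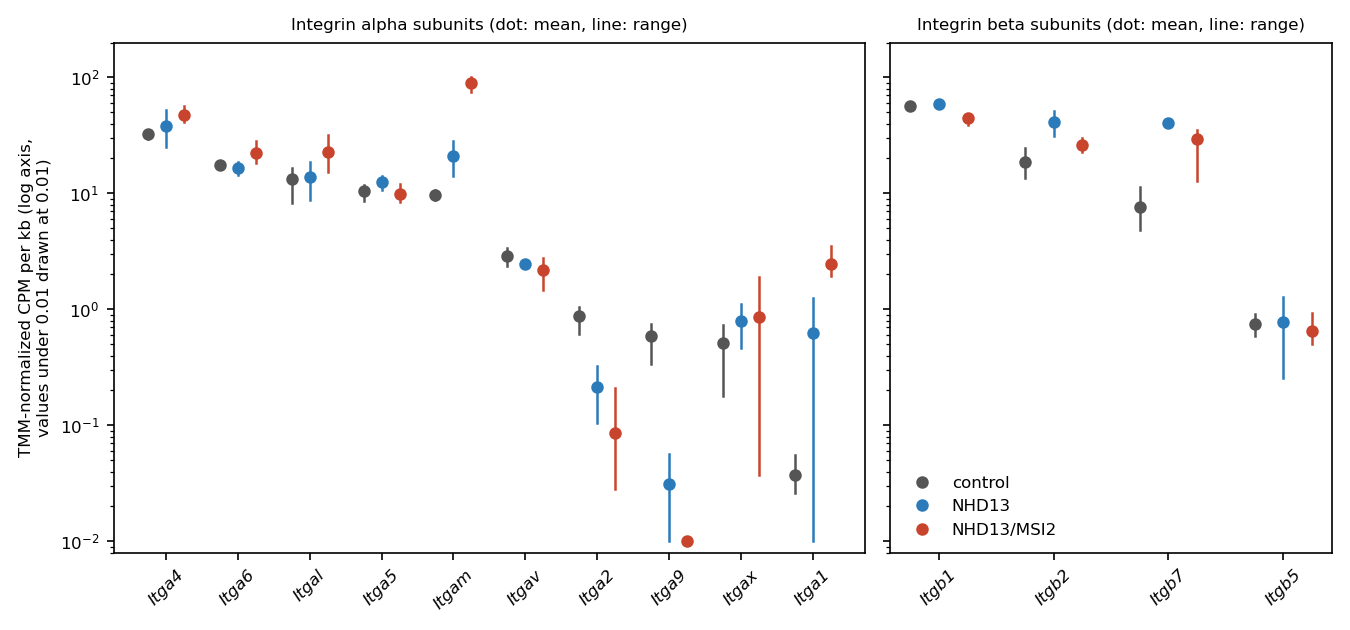
TMM-normalized CPM per kb of transcript (vertical axis, log scale) of the integrin subunits with a group mean of at least 0.5 CPM per kb, with the mean as a dot and the lowest to highest library as a line (values under 0.01 drawn at 0.01) in control (grey), NHD13 (blue) and NHD13/MSI2 (red). Itgam rises from 9.68 in control to 88.7 in NHD13/MSI2, while the group means of Itgb1 and Itga4 lie between 32.3 and 59.3.

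Both ends of the P-selectin axis were well counted in LSKs. Selp (chromosome 1, 164115264 to 164150026, plus strand), known from platelets and endothelium and also transcribed in progenitor cells, was at 158, 159 and 67.4 CPM in the controls, 314 and 111 in NHD13, and 822, 656, 649 and 842 in NHD13/MSI2. All 4 NHD13/MSI2 libraries lay above the 5 others, whereas the NHD13 and control ranges overlapped. Selp changed by a log2 fold of 2.53 over control (standard error 0.42, edgeR adjusted p = 0.00268) and 1.80 over NHD13 (standard error 0.47, adjusted p = 0.0453). Per kb, its group means were 37.3, 61.8 and 216 CPM in control, NHD13 and NHD13/MSI2. The call over control was lost without any 1 of the controls (adjusted p from 0.0101 to 0.0118), and Selp is among the genes whose name was moved in the table.

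Selplg (PSGL-1), the mucin that selectins bind, did not pass. It was at 135, 182 and 132 CPM in the controls, 218 and 232 in NHD13, and 259, 241, 267 and 144 in NHD13/MSI2. NHD13/MSI2 replicate 4 was within the control range and replicates 1 to 3 above it. Its log2 fold change over control was 0.61 (standard error 0.23, edgeR adjusted p = 0.0923), and without replicate 4 it was 0.78 and passed (adjusted p = 0.00299). Over NHD13 it was 0.018 (standard error 0.25, adjusted p = 0.980).

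Sele (E-selectin, known from endothelium), which is not among the 39 genes, was at 0.120 to 0.285 CPM in control, 1.29 and 1.23 in NHD13 and 3.31 to 4.64 in NHD13/MSI2, and passed over control (log2 fold change 4.34, standard error 0.50, edgeR adjusted p = 0.000452). Sele passed the filter on low counts only through NHD13 and NHD13/MSI2, so it could be tested only because those groups were higher. Megakaryocyte markers, which go with Selp in platelet precursors, were 6 genes of which 4 were tested and 1 (Itga2b) fell over NHD13 and over control. Of all tested genes 3.17% and 11.0% passed in these comparisons. The megakaryocyte markers summed to 68.2 to 150 CPM in control, 73.7 and 538 in NHD13 and 9.22 to 35.2 in NHD13/MSI2. Endothelial markers summed to 73.1 to 142, 34.2 to 107 and 1.95 to 7.51 CPM in the same order. Most of this sum was Tie1 and Emcn in every library. Kdr, Cdh5, Cldn5 and Plvap reached at most 4.64 CPM in a library, and the group means of Plvap were 0.323, 3.13 and 0.740 CPM. The part of such cells in the selectin results was not tested. Gp6, a megakaryocyte marker, was at 0 in all 9 libraries.

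The 3 junctional adhesion molecules all fell in NHD13/MSI2 over both other groups. F11r (JAM-A, chromosome 1, 171437535 to 171464603, plus strand) was at 72.4, 53.8 and 63.4 CPM in the controls, 104 and 27.3 in NHD13, and 6.47, 3.29, 5.02 and 7.66 in NHD13/MSI2. The highest NHD13/MSI2 library was below the lowest of the 5 others. F11r had log2 fold changes of -3.55 over NHD13 (standard error 0.47, edgeR adjusted p = 0.00284) and -3.50 over control (standard error 0.44, adjusted p = 0.000722), a mean 11.7 and 11.3 times lower. The call over control held with each library left out. That over NHD13 was lost without NHD13 replicate 1 (0.0138), without NHD13/MSI2 replicate 3 (0.01002) and with only the 2 groups in the fit (0.0258).

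Jam2 and Jam3 (JAM-B and JAM-C), which bind each other, fell to near the floor. Jam2 (chromosome 16, 84774123 to 84825928, plus strand) was at 9.20, 3.23 and 4.92 CPM in the controls, 39.002 and 11.4 in NHD13, and 0, 0.648, 0.0452 and 0.389 in NHD13/MSI2. Jam3 (chromosome 9, 27097384 to 27155421, minus strand) was at 9.36, 2.94 and 11.1 CPM in the controls, 31.0 and 10.7 in NHD13, and 0.465, 0.798, 0.724 and 0 in NHD13/MSI2. The NHD13/MSI2 libraries lay below all others in both genes.

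Over NHD13, the log2 fold change was -6.54 for Jam2 (standard error 0.96, edgeR adjusted p = 0.00431) and -5.33 for Jam3 (standard error 0.85, adjusted p = 0.00616). Over control it was -4.42 for Jam2 (standard error 0.89, adjusted p = 0.00704) and -3.92 for Jam3 (standard error 0.78, adjusted p = 0.00695). Between NHD13 and control neither passed (Jam2 2.12, standard error 0.87, adjusted p = 0.316, and Jam3 1.42, standard error 0.81, adjusted p = 0.541).

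These calls were close to the threshold. Over NHD13, Jam2 was lost without any 1 of the controls, NHD13 replicate 1 or NHD13/MSI2 replicate 3 (adjusted p from 0.0105 to 0.0320), and Jam3 was kept only without NHD13 replicate 2 or NHD13/MSI2 replicate 4 (adjusted p from 0.0103 to 0.0431 without any other). With only the 2 groups in the fit both were lost over NHD13 (Jam2 0.0292 and Jam3 0.0323), and over control Jam2 was lost (0.0111) and Jam3 kept (0.00945). Over control, Jam2 was lost without any 1 of the controls or NHD13/MSI2 replicate 1 or 3 (adjusted p from 0.0123 to 0.0304), and Jam3 without control replicate 1 or 3 or NHD13/MSI2 replicate 1, 2 or 3 (from 0.0160 to 0.0292).

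NHD13 replicate 1 was higher than NHD13 replicate 2 in all 3 junctional genes. The same library was higher in Cd9 (224 against 71.6 CPM) and Selp (314 against 111 CPM) and in the summed megakaryocyte markers (538 against 73.7 CPM). Most markers of haematopoietic stem cells fell in the NHD13/MSI2 libraries together with the junctional genes: of 10 listed and tested, 6 fell over NHD13, and over control 7 fell and 1 (Mecom, a transcription factor of stem cells) rose. Of all tested genes 3.17% passed over NHD13 and 11.0% over control. Mecom was also higher over NHD13 without passing (log2 fold change 2.36, standard error 0.45, edgeR adjusted p = 0.0124). The sum of this list was 836 to 1389 CPM in control, 453 and 1306 in NHD13 and 1225 to 1756 in NHD13/MSI2, where most of it came from Mecom. Endothelial markers, 4 of 6 tested, fell in 2 genes in both comparisons, and among the 6 Kdr was at 0 in NHD13/MSI2 replicates 2 and 3. The part of stem cells, megakaryocyte precursors or endothelial cells in the junctional result was not tested.

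Pecam1 rose in NHD13/MSI2 over control. It (CD31, chromosome 11, 106654217 to 106750628, minus strand) was at 173, 150 and 158 CPM in the controls, 300.5 and 340.0 in NHD13, and 485, 437, 558 and 499 in NHD13/MSI2. Control was lowest, NHD13 between and NHD13/MSI2 highest, without overlap. NHD13/MSI2 differed by a log2 fold change of 1.63 from control (standard error 0.15, edgeR adjusted p = 0.000131), a call that held with each of the 9 libraries left out, and by 0.63 from NHD13 (standard error 0.16, adjusted p = 0.0417). NHD13 over control came close to the threshold (1.00, standard error 0.16, adjusted p = 0.0125) and passed without NHD13/MSI2 replicate 4 (0.99, adjusted p = 0.00430). Pecam1 is among the 5 members whose name was moved, and with the names as deposited its log2 fold change over control was -0.56 (adjusted p = 0.319).

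Alcam (CD166, chromosome 16, 52248996 to 52454074, minus strand), which binds itself and CD6, fell in NHD13/MSI2 over control. It was at 33.9, 45.1 and 46.1 CPM in the controls, 12.8 and 11.4 in NHD13, and 2.17, 2.84, 4.98 and 7.59 in NHD13/MSI2. Control was highest and NHD13/MSI2 lowest, without overlap between groups. Alcam had log2 fold changes of -3.25 over control (standard error 0.39, edgeR adjusted p = 0.000589), which held with each library left out, -1.47 over NHD13 (standard error 0.42, adjusted p = 0.0626) and -1.79 in NHD13 over control (standard error 0.47, adjusted p = 0.0961). Without NHD13/MSI2 replicate 4 the fall over NHD13 passed (-1.83, adjusted p = 0.00899).

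The integrin counter-receptors Icam1, Icam2 and Vcam1 passed in no comparison. Icam1 was at 59.9 to 64.0 CPM in control, 43.7 and 64.0 in NHD13 and 48.7 to 69.4 in NHD13/MSI2 (log2 fold change 0.0090 over control, standard error 0.18, edgeR adjusted p = 0.982). Icam2 ranged from 47.9 to 83.0 CPM over all libraries. Vcam1, made mainly by stromal and endothelial cells, ranged from 3.31 to 32.0 CPM, with its lowest and highest libraries in NHD13 and NHD13/MSI2. The neural adhesion genes were scarce and uneven, Ncam1 between 0.798 and 13.1 CPM and L1cam between 0.0475 and 9.29 CPM, the latter in NHD13 replicate 1. Cdh2 (N-cadherin) had at most 15 counts in a library, and Cdh5 (VE-cadherin) at most 11, under the filter. In NHD13 over control the libraries of Ncam1 and of L1cam did not overlap, without passing the test (edgeR adjusted p = 0.418 and 0.136).

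**Figure D3:**
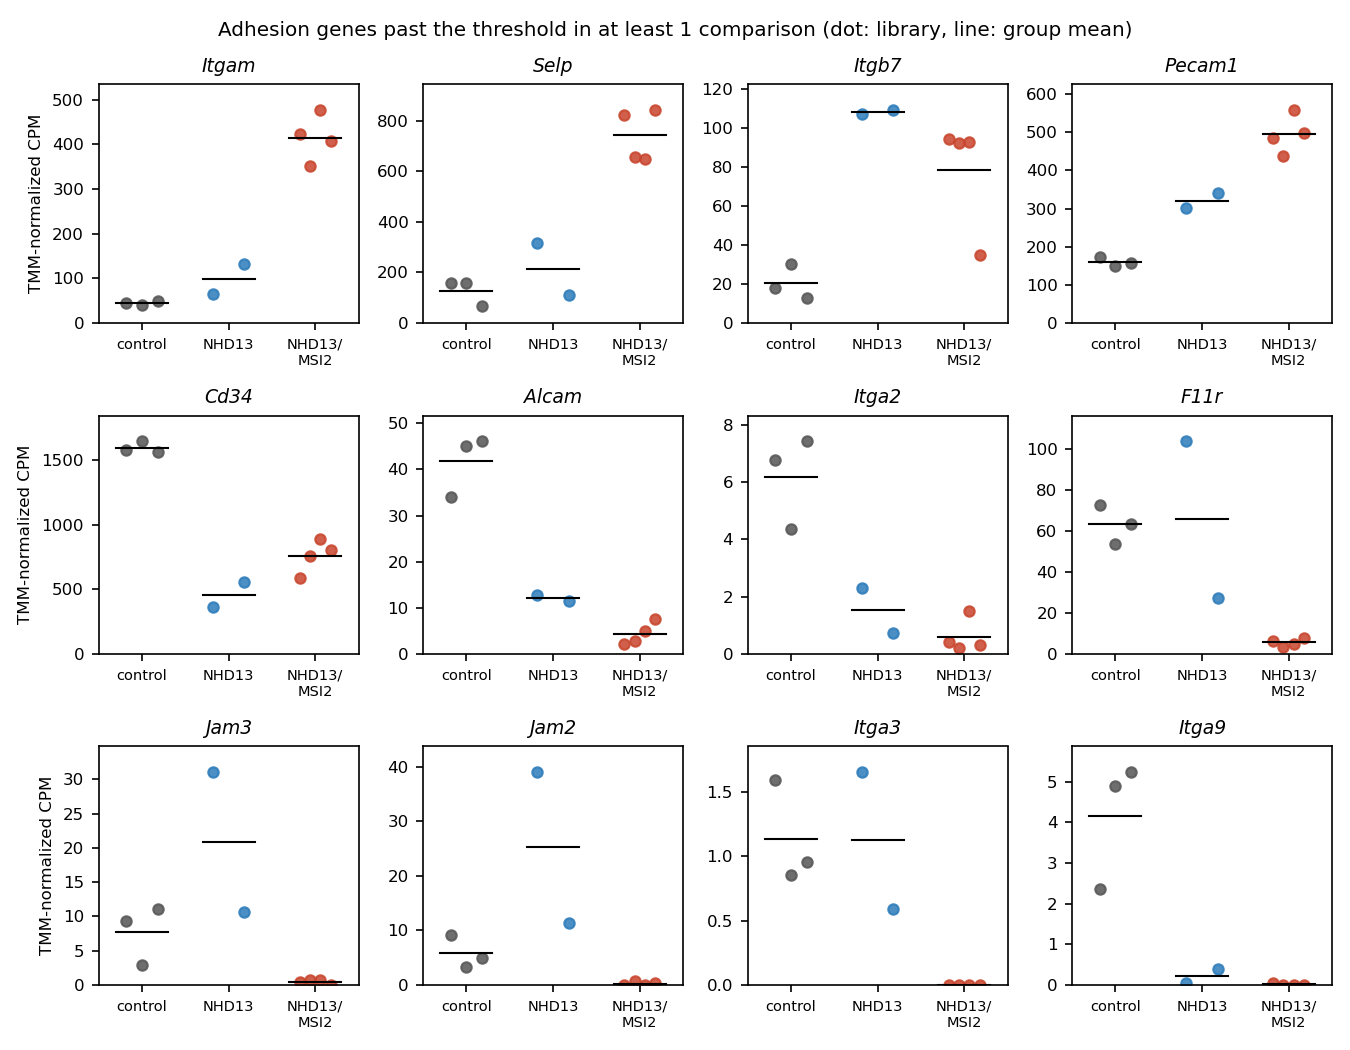
TMM-normalized CPM (vertical axis, from 0, own scale per panel) of the 12 members that passed in at least 1 comparison, with a dot per library and a line at the group mean for control (n = 3), NHD13 (n = 2) and NHD13/MSI2 (n = 4). Itgam, Selp and Pecam1 are highest in NHD13/MSI2 and Itga3, F11r, Jam2 and Jam3 lowest there, Itgb7 has a low replicate 4 at 34.7 CPM, and Cd34 is high in the controls alone.

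Cd34, a sialomucin that marks progenitors and carries selectin ligands, was the most abundant member per kb averaged over the libraries and fell in both groups with NHD13. It lies on chromosome 1 from 194938819 to 194961279 (plus strand). Its CPM were 1581, 1650 and 1566 in the controls, 363 and 555 in NHD13, and 588, 761, 894 and 809 in NHD13/MSI2. The controls lay far above the other 6 libraries, and the NHD13/MSI2 libraries lay above both NHD13 libraries.

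Cd34 differed by a log2 fold change of -1.80 in NHD13 over control (standard error 0.25, edgeR adjusted p = 0.00572) and -1.07 in NHD13/MSI2 over control (standard error 0.20, adjusted p = 0.00457), or 3.48 and 2.10 times lower. Over NHD13 it was 0.73 (standard error 0.23, adjusted p = 0.0882). The call in NHD13 over control was kept only without NHD13/MSI2 replicate 1 or 4 (adjusted p from 0.0115 to 0.0358 without any other, and 0.0105 with only the 2 groups in the fit), and that in NHD13/MSI2 over control was lost without any 1 of the controls or without NHD13/MSI2 replicate 1 or 2 (from 0.0150 to 0.0217). The log2 fold change stayed between -2.15 and -1.52 and between -1.15 and -0.95 in these fits. Of the 4 listed markers of the sorted compartment, Flt3 fell in NHD13/MSI2 over control (log2 fold change -2.01, standard error 0.37, adjusted p = 0.00497), while Kit (-0.76, adjusted p = 0.0561), Ly6a (1.60, adjusted p = 0.0167) and Ptprc (0.28, adjusted p = 0.319) did not pass and did not share a sign.

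Cd48, a SLAM family protein that is absent from the most primitive stem cells and present on multipotent progenitors, was at 162, 216 and 191 CPM per kb in control, NHD13 and NHD13/MSI2 (Cd34 at 626, 180 and 299) and passed in no comparison. Its CPM were 171, 240.4 and 164 in the controls, 187 and 324 in NHD13, and 298, 255, 249 and 104 in NHD13/MSI2. The groups overlapped, and replicate 4 of NHD13/MSI2 was the lowest of all libraries. Over control the log2 fold change was 0.24 (standard error 0.35, edgeR adjusted p = 0.685), and over NHD13 -0.18 (standard error 0.39, adjusted p = 0.848). Slamf1 (CD150), the receptor used with Cd48 to gate stem cells, is not among the 39 genes and was at 30.2, 15.1 and 12.6 CPM in control, 51.8 and 13.4 in NHD13, and 0.155, 0.0499, 1.86 and 0.130 in NHD13/MSI2, which passed over NHD13 (log2 fold change -5.81, standard error 1.02, adjusted p = 0.00904) and over control (-5.06, standard error 0.97, adjusted p = 0.00559).

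Per kb and averaged over the 9 libraries, of which 4 are NHD13/MSI2, the order of the most abundant members was Cd34 at 381 CPM, Cd48 at 187, Selp at 122, Selplg at 108 and Pecam1 at 100.1, followed by Cd9 at 99.3 and Cd47 at 91.8. This order is not that of each group, since Cd48 was above Cd34 in NHD13, and Selp above Cd48 in NHD13/MSI2 and well below it in control. Cd44, the hyaluronan receptor, was at 323, 346 and 335 CPM (not per kb) in the controls, 241 and 198 in NHD13, and 258, 285, 267 and 182 in NHD13/MSI2. All 6 libraries with NHD13 lay below the controls, but the difference did not pass (log2 fold change -0.43 in NHD13/MSI2 over control, standard error 0.17, edgeR adjusted p = 0.113, and -0.61 in NHD13 over control, standard error 0.21, adjusted p = 0.213). Cd47, the signal that restrains phagocytes, was at 415 to 607 CPM in control, 548 and 671 in NHD13, and 364 to 460 in NHD13/MSI2 (log2 fold change -0.61 over NHD13, standard error 0.19, adjusted p = 0.0892). Cd9, a tetraspanin, was at 103 to 132 CPM in control, 71.6 and 224 in NHD13 and 91.7 to 129 in NHD13/MSI2, without a call.

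The genes that act with these receptors were counted by list, with the lists named in the plot of calls. Cd9 and Cd48, which are among the 39 genes, are also counted in the tetraspanin and SLAM lists. Slamf1, Esam and Emcn of these lists are also among the stem cell or endothelial markers used above. Of the machinery that activates integrins and links them to actin, 35 of 40 genes were tested, and 1 passed over NHD13 and 4 over control (3 higher, 1 lower). These shares, 2.86% and 11.4%, were near the 3.17% and 11.0% of all tested genes. The gene over NHD13 was Parvg (gamma-parvin, a leukocyte actin linker), at 201 to 252 CPM in control, 222 and 278 in NHD13 and 444 to 622 in NHD13/MSI2 (log2 fold change 1.11, standard error 0.20, edgeR adjusted p = 0.0095). Over control, Parvg, Rasgrp2 (an exchange factor for Rap1) and Lyn (a Src family kinase) rose. The lower call was Src, a kinase of focal adhesions, which passed the filter on low counts only through its control libraries (28 to 31 counts) and so could be tested only because control was higher. With NHD13/MSI2 replicate 4 left out, 2 rose over NHD13 and 3 over control, and Src was no longer called. The median log2 fold change of this list was -0.042 over NHD13 and -0.093 over control.

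Of 13 selectin ligand synthesis genes, 2 fell over NHD13, namely St3gal6 (a sialyltransferase, log2 fold change -3.12, standard error 0.53, edgeR adjusted p = 0.00776) and Chst2 (a sulfotransferase, -5.51, standard error 0.85, adjusted p = 0.00547). St3gal6 was at 5.46 to 9.81 CPM in control, 84.2 and 19.1 in NHD13 and 3.19 to 7.96 in NHD13/MSI2, so that NHD13/MSI2 overlapped control and NHD13 stood above both. Chst2 was at 2.80 to 6.42, 23.6 and 8.84, and 0 to 0.779 CPM. When NHD13/MSI2 replicate 4 was left out, 1 fell over NHD13, and over control 3 rose and 1 fell. With all libraries 2 rose over control, St3gal4 and C1galt1c1, the chaperone of core 1 O-glycan synthesis. The 2 of 13 in each comparison are 15.4%, where 3.17% of all tested genes passed over NHD13 and 11.0% over control. C1galt1c1 also rose in NHD13 over control (28.0 to 29.7 CPM against 68.8 and 76.7, log2 fold change 1.33, standard error 0.19, adjusted p = 0.00707).

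Of the 7 mucin and ERM partners, the same gene passed over NHD13 and over control (3 passed over control without NHD13/MSI2 replicate 4, 2 higher and 1 lower). This was Emcn (endomucin, on stem cells and endothelium), at 15.8 to 33.7 CPM in control, 27.5 and 5.93 in NHD13 and 0 to 0.399 in NHD13/MSI2 (log2 fold change -6.70 over NHD13, standard error 0.84, edgeR adjusted p = 0.00231). Emcn passed the filter on low counts only through control and NHD13, so it could be tested only because those groups were higher. Of 15 tested tetraspanins, Cd82 rose over NHD13 (1.41, standard error 0.23, adjusted p = 0.00645) and Tspan2 fell (-2.40, standard error 0.43, adjusted p = 0.00972), and over control 2 rose and 5 fell. The shares over NHD13 and over control were 13.3% and 46.7% for tetraspanins and 14.3% in both for the mucin and ERM partners. Of all tested genes 3.17% and 11.0% passed.

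Of 8 tested SLAM receptors, Slamf1 fell over NHD13, and over control Slamf1 and Cd244 fell and Slamf6 rose (1 fell and 1 rose without NHD13/MSI2 replicate 4). Without NHD13/MSI2 replicate 4 edgeR called 0 of these 8 over NHD13 (4 had an unadjusted p under 0.05, and DESeq2 called 1 with all libraries). Of 4 CD47 partners, Lrp1 fell over NHD13, being high in NHD13 (12.2 and 28.1 CPM) and at 0.949 to 3.12 CPM in control and 0.779 to 1.49 CPM in NHD13/MSI2 (log2 fold change -4.07, standard error 0.52, edgeR adjusted p = 0.00252). Over control edgeR called 0 of the 4, with 3 at an unadjusted p under 0.05 and 2 called by DESeq2. Without NHD13/MSI2 replicate 4 edgeR called 1 of them higher over control, and 1 higher and 1 lower over NHD13. With all libraries the SLAM shares were 12.5% over NHD13 and 37.5% over control, and the CD47 partner share over NHD13 was 25%. Of all tested genes 3.17% passed over NHD13 and 11.0% over control.

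Of 15 tested matrix ligands of 22 listed, Col4a1 rose over NHD13 (log2 fold change 3.49, standard error 0.54, edgeR adjusted p = 0.0055) after a fall in NHD13 over control (-3.79, standard error 0.56, adjusted p = 0.00753). Its CPM were 10.999 to 12.9 in control, 0.690 and 0.988 in NHD13 and 3.93 to 13.9 in NHD13/MSI2. Of the tested matrix ligands 6.67% passed over NHD13 and 6.67% over control, where 3.17% and 11.0% of all tested genes passed. Over control Spp1 (osteopontin, a ligand of alpha9 and alpha4 integrins) fell, from 5.69 to 9.98 CPM in control to at most 0.414 CPM in NHD13/MSI2. Spp1 passed the filter on low counts only through control and NHD13. Col4a1 and Spp1 encode matrix components that stromal and endothelial cells also make, and stromal markers summed to 0.195 to 29.5 CPM over all libraries.

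Of the other cell adhesion molecules, 9 of 18 tested passed over control (1 higher, 8 lower), where 11.0% of all tested genes passed. The median log2 change of the 18 was -1.95. Over NHD13, Esam and Icam4 fell (11.1% of the list, against 3.17% of all tested genes), and a further gene passed when NHD13/MSI2 replicate 4 was left out. Esam, a relative of the junctional adhesion molecules that marks stem cells and endothelium, was at 51.1 to 103 CPM in control, 77.7 and 26.3 in NHD13 and 3.21 to 8.24 in NHD13/MSI2 (log2 fold change -3.09 over NHD13, standard error 0.46, edgeR adjusted p = 0.00491). Icam4 was at 6.12 to 11.1 CPM in control, 11.4 and 8.10 in NHD13 and 1.23 to 2.49 in NHD13/MSI2 (-2.32, standard error 0.37, adjusted p = 0.00644). The gene that rose was Cdh1 (E-cadherin), at 0 to 0.286 CPM in control, 30.4 and 33.3 in NHD13 and 3.05 to 15.0 in NHD13/MSI2, which passed in NHD13 over control as well. Cdh1 passed the filter on low counts only through NHD13 and NHD13/MSI2, so it could be tested only because those groups were higher.

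Of the 6 integrin subunits outside the 39 genes 5 were tested, and 2 fell over NHD13 (3 without NHD13/MSI2 replicate 4) and 3 over control. With all libraries these are 40% and 60% of the 5, where 3.17% and 11.0% of all tested genes passed. Itga2b (CD41, the platelet integrin chain, also on early progenitors) was at 109, 90.9 and 47.8 CPM in control, 212 and 49.6 in NHD13, and 9.10, 9.08, 18.4 and 4.48 in NHD13/MSI2 (log2 fold change -3.66 over NHD13, standard error 0.61, edgeR adjusted p = 0.00734, and 8.05 times lower than control, adjusted p = 0.00542). Itgb3, its beta partner, was at 12.1 to 42.7 CPM in control, 45.7 and 17.1 in NHD13 and 0.519 to 3.52 in NHD13/MSI2, and passed over control (-3.35, standard error 0.65, adjusted p = 0.00627). Itgb6 was at 1.16 to 2.18 CPM in control and 3.13 and 2.52 in NHD13 and at 0 in all 4 NHD13/MSI2 libraries, at least 10.2-fold lower than control and at least 17.8-fold lower than NHD13. Itgb6 passed the filter on low counts only through control and NHD13, so it could be tested only because those groups were higher. Itga10 and Itgad passed in no comparison, and Itga11 was under the filter. Itga2b is also in the megakaryocyte list used above.

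In NHD13 over control, edgeR called 1 gene each of the selectin ligand synthesis, matrix ligand and other adhesion lists and 0 of the 7 other lists, in which 8 genes had an unadjusted p under 0.05 and DESeq2 called 4. The 1 gene is 7.69%, 6.67% and 5.56% of the 3 lists in this order, where 1.03% of all tested genes passed.

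**Figure D4:**
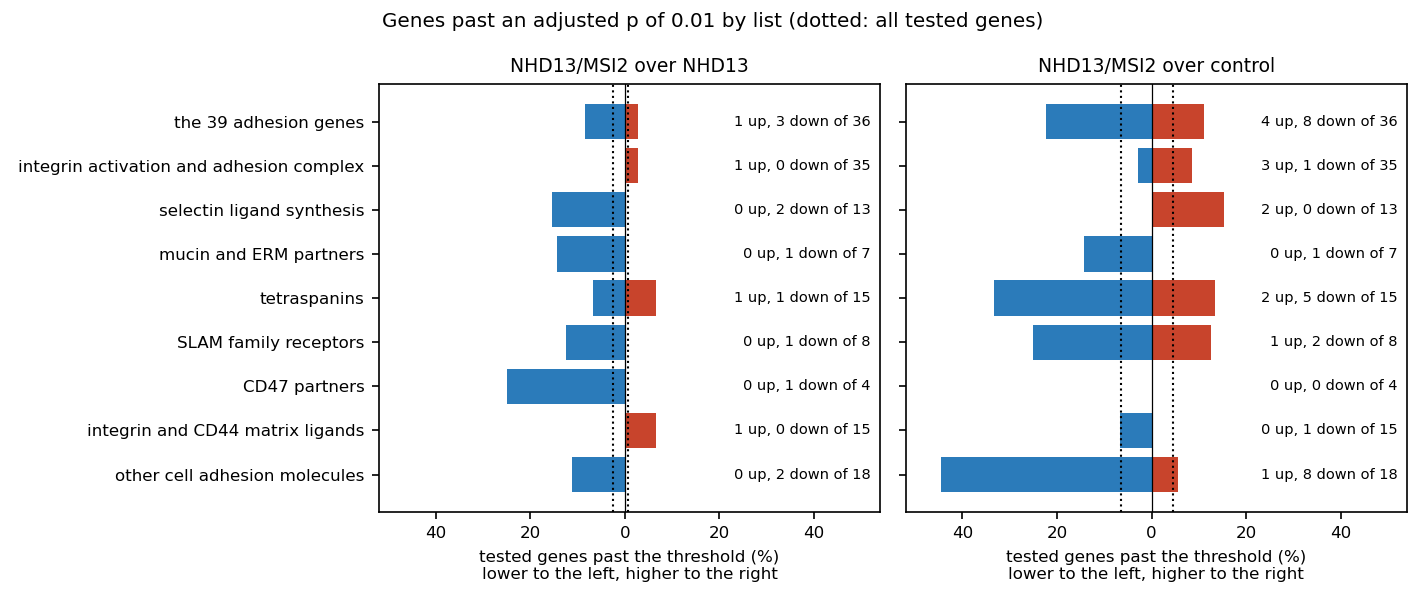
Percent of tested genes past an adjusted p of 0.01 (horizontal axis, lower to the left in blue and higher to the right in red) for the 39 adhesion genes and 8 partner lists, with the share of all tested genes as dotted lines. Over control the other cell adhesion molecules (8 lower of 18) and tetraspanins (5 lower of 15) reach furthest to the left, and the integrin activation list (3 higher and 1 lower of 35) has bars of under 10 percent.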

How the data were processed

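The authors deposited whole-number read counts per gene symbol in a table with 1 column per library, without normalization. The submitters' processing notes name STAR, HTSeq, DESeq and the mm9 build, without roles or versions. Libraries were grouped by their sample titles. Names after 11 rows that a spreadsheet had turned into dates (n-Mar, from March and Marc genes) stand 2 rows too high, so 11942 names were moved down by 2 rows, among them those of Ncam1, Pecam1, Selp, Selplg and Vcam1. As a check, Xist and Uty are at 0 in every library with the names as deposited and reach 21712 and 2917 counts after the move. The 13 rows without a name (0.0253% to 0.0323% of the counts) were not used.

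All 9 libraries entered 1 quasi-likelihood model of edgeR 4.0.16 (R 4.3.3) after filterByExpr and TMM scaling, over 13355 genes, with Benjamini-Hochberg adjustment over all of them and 0.01 as the threshold. The prior degrees of freedom were 3.382, and the spread of the 2 NHD13 libraries was shared with the other groups. CPM are TMM-normalized. Lengths (longest protein-coding transcript) and positions are from GENCODE M21 on GRCm38, promoter stretches from RefSeq on GRCm38.p6. Neither is the build in the submitters' notes. Where all libraries of a group had 3 counts or fewer, folds are bounds against 3 counts per library, and bounds cover counting error only. The scripts were tested on simulated data.

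Members, partner lists and markers were chosen with earlier results of these data known. Named in full are members past the threshold in at least 1 comparison, the 5 highest per kb, Cd34 and Cd48. Of each partner list at most 4 genes past the threshold with the largest change and a mean of at least 50 counts are given values, together with integrins, Sele, Slamf1, Msi2 and Hoxd13 outside the 39. A further gene that this rule names, outside the 39, is not reported here. Csf1r, Cd68, Ccr2, Emr1, Mecom, Kdr, Gp6, Kit, Ly6a, Flt3, Rasgrp2, Lyn, Src, St3gal4, C1galt1c1, Cd244, Slamf6, Spp1, Cdh1, Ptprc, Lck, Cd3d, Cd3e, Cd3g, Cd79a, Cd79b, Ebf1, Tie1, Plvap, Cldn5, Xist, Uty and Ddx3y, and the values of every library for Itga1, Itgb2 and Cd44, were added after their values were seen. Both NHD13 library names carry the same number, and the NHD13/MSI2 library names share another. Control replicate 1 carries a different number again. The labels do not explain these numbers or the letter codes beside them, so what the numbers stand for cannot be told apart from the group. The study sorted LSKs from transplanted mice without saying which library came from which mouse, so p-values measure the spread between these samples, which may be technical. Alternatives were DESeq2 1.42.0, RLE factors, no filter, an adjusted p under 0.05, a robust fit, only the 2 groups compared, the replicate number as a block, names as deposited, no TMM factors for CPM, and leaving out each library. List counts with DESeq2 and without NHD13/MSI2 replicate 4 were chosen after seeing the data.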

Additional observations from a re-analysis of the deposited data

Results flagged for a closer look

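Itgb7 in NHD13/MSI2 replicate 4 was at 34.7 CPM, far from replicates 1 to 3 (92.2 to 94.2 CPM). The gap was 0.965 of the range of the group, above Dixon's 95% critical value for 4 samples. The 27 members with a mean of at least 1 CPM in this group were examined, and chance sets apart about 1 in 20 such groups. The library also stands apart over all genes.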

How the results depend on the processing

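The direction of a called member changed in 1 case: with the names as deposited, the log2 fold change of Pecam1 in NHD13/MSI2 over control was -0.56. Of the other alternative fits of called members, 216 kept the call and 72 kept the direction and lost it. In NHD13/MSI2 over NHD13 the 4 calls became 7 with DESeq2, 7 at an adjusted p under 0.05, 0 with only the 2 groups in the fit (12 members at an unadjusted p under 0.05) and 1 to 5 with each library left out. In NHD13 over control the 1 call became 7 with DESeq2, 3 at an adjusted p under 0.05, 0 with only the 2 groups (14 at an unadjusted p under 0.05) and 0 to 3 with each library left out. In NHD13/MSI2 over control the 12 calls were 10 to 13 under the other alternatives and 5 to 12 with each library left out. The cause of these changes was not tested. Over all genes, DESeq2 called 1286, 2589 and 594 genes (NHD13/MSI2 against NHD13, then against control, then NHD13 against control), where edgeR called 423, 1474 and 138, and 2-group fits called 30, 1602 and 83. The labels number the replicates in each group, but the deviations of same-numbered libraries correlated at -0.0716 to 0.194 and nothing says that a number marks a shared mouse or day. With the replicate block 2 members passed in NHD13/MSI2 over NHD13, 11 in NHD13/MSI2 over control and 2 in NHD13 over control, and the calls of Itgam and Jam2 over NHD13 and of Jam2 and Itga3 over control were lost. Of 36 group means of called members, 34 moved by less than 1 SD without TMM factors. Without NHD13/MSI2 replicate 4 over all genes 646, 2066 and 251 were called, and the fewest were 128 (without NHD13 replicate 1), 647 and 38 (both without control replicate 3). The share of calls that were lower moved from 81.6% to 69.1% over NHD13 and from 20.3% to 37.4% in NHD13 over control with DESeq2. With each library left out it ranged from 67.3% (without NHD13/MSI2 replicate 4) to 91.8% (without NHD13 replicate 2) over NHD13 and from 2.22% (without NHD13 replicate 2) to 27.5% (without NHD13/MSI2 replicate 4) in NHD13 over control, and it was 34.9% there with only the 2 groups. With 3 or fewer counts per library, as for Itga3 and Itga9 in NHD13/MSI2, depth allows only bounds.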
